A study of Mus musculus with 9 samples.

Results

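Collagens, laminins and integrins are the structural genes of the extracellular matrix and of the receptors that hold cells to it. The genes described here are the autosomal protein-coding genes of the mouse mm9 genome whose symbol names a collagen chain, a laminin chain or an integrin subunit, which gave 80 of the 21418 autosomal protein-coding genes. They comprised 41 collagens, 11 laminin chains and 28 integrins, with 18 alpha and 10 beta subunits or beta-like genes. Binding proteins such as *Itgb1bp1* and the X-linked collagens were left out by the rule.

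Chromatin binding was measured by ChIP-seq in *Nfkb2*-/- mouse embryonic fibroblasts (MEFs), the deletion being shared by every library, so that nothing here compares genotypes. Cells were taken before TNF (0 h) or after 6 h in 10 ng/ml TNF, and immunoprecipitation used antibodies to RelA (p65) or to RelB. Each antibody and time point had 2 libraries, giving 8 lists of peaks that the authors called one library at a time against *Nfkb2*-/- input chromatin. The lists hold no expression values, so neither the fibroblast identity of the cells nor the deletion could be checked, and no level of a collagen, laminin or integrin transcript was measured. It is not stated in the sources used here whether both libraries of a group came from separate cultures, so p-values measure the spread between libraries, which may be technical.

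RelA and RelB are DNA-binding subunits of NF-κB, which TNF releases into the nucleus. *Nfkb2* encodes p100, an NF-κB precursor that also restrains RelB, and in its absence RelB is held to pair mainly with p50, as RelA does. Collagen chains assemble as triple helices into fibrils, networks or microfibrils, and laminins assemble from an alpha, a beta and a gamma chain into basement membrane. Integrins pair an alpha with a beta subunit at the cell surface and bind these proteins. Fibroblasts are the main producers of fibrillar collagen in connective tissue, and TNF is known as a regulator of matrix genes in them.

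The 6 h lists held 7052 and 5688 peaks for RelA against 5192 and 6698 for RelB, and the 0 h lists held between 14 and 194. Total reads per library are unknown, and reads in peaks at 6 h ran from 120352 to 162105 per library, so a gene without a peak is a gene where none was called at that depth. *Nfkbia*, the IκBα gene and a known NF-κB target, had at 6 h 8 and 7 RelA peaks and 6 and 9 RelB peaks in reach of its start site (50 kb), and 1 peak in the 4 libraries at 0 h together.

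A site of an antibody was defined as peaks of both its 6 h libraries that overlapped by at least 1 bp, and a gene was called bound when the centre of a site lay within 50 kb of its start site. By this definition 27 of the 80 genes were bound, by RelA, RelB or both, and the other 53 were not. RelA sites lay near 19 genes (23.8%, against 13.9% of all autosomal protein-coding genes). RelB sites lay near 23 genes (28.8%, against 14.6%). Both antibodies had a site near 15 genes (18.8%, against 9.51%). A RelA site without a RelB site was found for 4 genes (5%, against 4.4%), which is close to the background. A RelB site without a RelA site was found for 8 genes (10%, against 5.12%). Another 25 genes (31.2%, against 26.1%) had peaks but no site, and 28 genes (35%, against 54.9%) had no peak in any 6 h library. The shares are given as a description, and the excess over the background was not tested. Within 10 kb of the start site, 7 genes had a RelA site (8.75%, against 4.31% of all genes) and 7 a RelB site (8.75%, against 4.18%). Within 50 kb, a single peak can serve several genes, so neighbouring members are not independent.

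**Figure D1:**
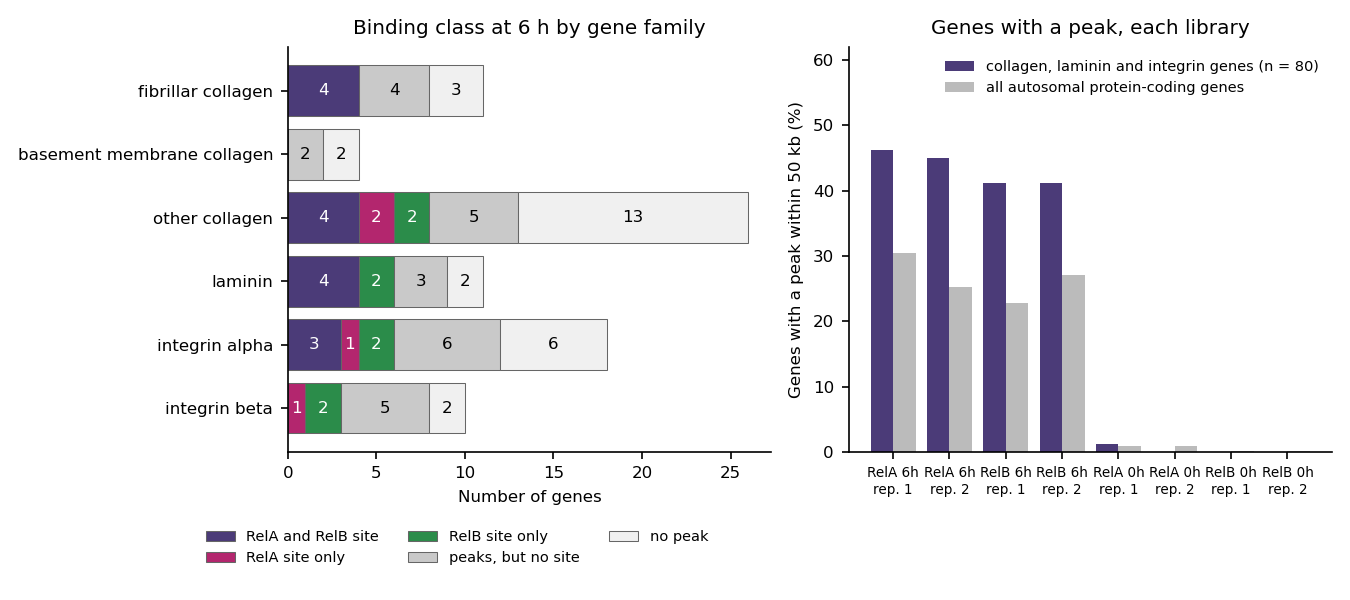
Left, the number of genes in each binding class at 6 h (x axis) for each family (y axis), where a site is a peak shared by both libraries of an antibody. Right, the percentage of genes with a peak within 50 kb of the start site in each of the 8 libraries, for the 80 genes and for all autosomal protein-coding genes: the 80 genes reach 41.2% to 46.2% in the 4 libraries at 6 h and at most 1.25% at 0 h.

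Counts by family are given without a test. Among the 11 fibrillar collagens, which form the banded fibrils of connective tissue, 4 had both a RelA and a RelB site (*Col1a2*, *Col5a1*, *Col11a2* and *Col27a1*) and none had a site of only one antibody. *Col2a1*, *Col3a1*, *Col5a3* and *Col24a1* had peaks but no site, and *Col1a1*, *Col5a2* and *Col11a1* had no peak. The partner chains of type I collagen thus fell in different classes, since *Col1a2* was bound by both antibodies and *Col1a1* had no peak within 50 kb in any library. None of the 4 network-forming type IV collagens of basement membrane was bound. *Col4a1* and *Col4a2*, which start next to each other in opposite directions, had peaks in the RelA libraries only, 2 and 1, and no site, and *Col4a3* and *Col4a4* had no peak.

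Of the 26 other collagens, 4 were bound by both antibodies (*Col6a1*, *Col8a1*, *Col8a2* and *Col18a1*), 2 had a RelA site without a RelB site (*Col6a6* and *Col19a1*) and 2 had a RelB site without a RelA site (*Col6a2* and *Col9a2*). Peaks without a site were found at *Col6a3*, *Col12a1*, *Col15a1*, *Col16a1* and *Col17a1*. The other 13 had no peak: *Col6a4*, *Col6a5*, *Col7a1*, *Col9a1*, *Col9a3*, *Col10a1*, *Col13a1*, *Col14a1*, *Col20a1*, *Col22a1*, *Col23a1*, *Col25a1* and *Col28a1*.

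Of the 11 laminin chains, 4 had a site of both antibodies (among them *Lama4*, *Lama5* and *Lamc1*) and 2 had a RelB site without a RelA site (*Lama1* and *Lamb2*). *Lama3*, *Lamb1* and *Lamb3* had peaks but no site, and *Lama2* and *Lamc3* had no peak.

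Among the 18 integrin alpha subunits, 3 were bound by both antibodies (*Itga1*, *Itga2* and *Itgav*), *Itga11* had a RelA site without a RelB site, and *Itgam* and *Itgax* had a RelB site without a RelA site. *Itga2b*, *Itga3*, *Itga7*, *Itga9*, *Itga10* and *Itgad* had peaks but no site, and *Itga4*, *Itga5*, *Itga6*, *Itga8*, *Itgae* and *Itgal* had no peak. No gene of the 10 in the beta family had a site of both antibodies. *Itgb2* had a RelA site without a RelB site, and *Itgb4* and *Itgb7* had a RelB site without a RelA site. *Itgb1*, the most widely shared beta subunit, had peaks but no site, as had *Itgb3*, *Itgb5*, *Itgb6* and *Itgb8*, while *Itgb2l* and *Itgbl1* had no peak.

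Of the 25 genes with peaks but no site, 11 had peaks in 1 library only. Peaks in both libraries of an antibody that did not overlap were found for 8 of the 25, 7 of them for RelA and 1 for RelB. The same shares over all genes with peaks but no site were not computed, so these counts are not particular to the matrix genes as far as is known. *Col5a3*, a minor fibrillar chain, had 2 and 3 RelA peaks and 0 and 1 RelB peaks, but the RelA peaks of one library did not overlap those of the other. *Lamb3* missed a RelA site by the overlap rule. Replicate 2 of RelA had a peak 346 bp upstream of its start site, with a log2 fold of 2.83. At a separate position 292 bp upstream, replicate 1 of RelA had 3.49 and replicate 2 of RelB had 3.86.

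At 0 h, 1 of the 80 genes (1.25%) had a peak in any library, against 1.19% of all genes. This was *Itgb7*, the beta subunit of the integrins that bring lymphocytes to the gut, with a peak 7031 bp upstream of its start site (chr15:102069383-102069411) in replicate 1 of RelA at 0 h. The peak had a log2 fold over input of 2.04 from 13 ChIP reads and 5 input reads, an FDR of 0.0909, and did not overlap a 6 h peak.

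Every 6 h library had more peaks near the start site than any 0 h library for 18 of the 80 genes (22.5%, against 12.8% of all genes). Each of the 18 had the smallest p that 4 libraries against 4 can give (p = 0.0286, exact permutation test, two-sided), which treats the RelA and RelB libraries of a time point as replicates. With labels permuted within each antibody the smallest p is 0.0556 (exact permutation test, two-sided), which each of the 18 had, so that none was under 0.05. The adjusted p over the 21418 genes was 0.224 for each of the 18 (exact permutation test over the 8 libraries). An adjusted p of 0.05 would have needed 57.1% of all genes at the smallest p, so with 2736 genes there no gene could pass. The 0 h lists were short for the whole genome, so this difference in number holds for the libraries and is not particular to the matrix genes.

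Near the 80 start sites lay 115 positions with a peak at 6 h, counted after overlapping peaks were merged, of 14665 on the autosomes. A peak was called in 1 library at 75 of them, in 2 libraries at 10, in 3 at 9 and in all 4 at 21. Of the 14665 autosomal positions, 9964 had a peak in 1 library, 1646 in 2, 1199 in 3 and 1856 in all 4. RelA sites numbered 25 and RelB sites 30, and 19 positions were sites of both antibodies. A RelA site with no RelB peak occurred at 2 positions and a RelB site with no RelA peak at 4. Across the autosomes the same counts were 2528 RelA sites, 2997 RelB sites and 1610 of both, with 387 and 563 free of any peak of the other antibody.

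Sites called in all 4 libraries lay near 15 genes, 7 collagens, 4 laminin chains and 4 integrins. The share of all autosomal protein-coding genes with such a site was not computed. Sites without a κB match were passed over for printing. Among them was that of *Itgb2*, whose mean log2 fold over the 4 libraries, 3.77, was above that of *Col18a1*, 3.62. The sequences around the κB matches are shown first for 7 of the best-ranked sites called in all 4 libraries that held a match. Each is 30 bases of the mm9 reference, printed 5′ to 3′ on the strand of the match, with the bases that match the 10-base κB consensus in capitals.
*Col8a2* (chr4:125978665-125978694, plus strand): tgaaaaggggGGAAATCCCCgttaaggact
*Lamc1* (chr1:155147744-155147773, plus strand): attagagacaGGGAAACCCCagtccaaaga
*Col18a1* (chr10:76579685-76579714, plus strand): gagtatctctGGAAAATCCCagggccgaag
*Col8a1* (chr16:57750864-57750893, plus strand): tagtggttgaGGGAATCCCCctagcggcac
*Itga2* (chr13:115708409-115708438, minus strand): gcaaaacattGGGTTTCCCCaggcaatttt
*Lama4* (chr10:38699412-38699441, minus strand): acagaaccagGGGTATTCCCgtgatgactc
*Col1a2* (chr6:4453268-4453297, plus strand): tgctcagtctGGGGCTTTCCaccaagtgct
The *Col8a2* site held 3 matches within 100 bp of the site centre, those of *Col18a1*, *Col8a1* and *Lama4* held 2, and those of *Lamc1*, *Itga2* and *Col1a2* held 1. A match is a description of the letters and was not tested as a binding site.

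*Lamc1*, the gamma chain shared by most laminins, had its site (chr1:155147710-155147860) in its own intron 32131 bp downstream of the start site. There the log2 folds over input were 3.80 and 3.53 with anti-RelA and 3.73 and 4.15 with anti-RelB, from 36, 28, 39 and 43 ChIP reads, so that the antibodies overlapped.

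*Lama4*, an alpha chain of vessel and muscle basement membrane, carried a pair of intronic sites at 14076 and 16804 bp. The nearer one (chr10:38699259-38699536) had log2 folds of 2.99 and 2.92 for RelA against 2.94 and 3.10 for RelB. The farther one (chr10:38701825-38702424) had 3.15 and 3.38 for RelA against 3.01 and 3.10 for RelB. All 8 values of *Lama4* lay between 2.92 and 3.38. The antibodies overlapped at the nearer site, and at the farther one both RelA values were the higher ones. *Lama5*, the alpha chain of most adult basement membranes, had an intronic site at 2453 bp (chr2:179957906-179958316) with log2 folds of 2.83 and 1.89 for RelA against 3.26 and 3.35 for RelB. Both RelB values there lay above both RelA values. Its other site, 9484 bp upstream (chr2:179969716-179970381), had 2.20 and 2.49 for RelA against 2.68 and 2.97 for RelB, again without overlap.

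Among the collagens, *Col8a2* stood first. It encodes a chain of the short network collagen of Descemet's membrane, and it had 19 peaks in the 4 libraries, the most of the 80 genes, before *Itgav* with 16 and *Col5a1* with 13. Its strongest site (chr4:125978271-125979265) lay in its own intron at 14731 bp, with log2 folds of 3.68 and 4.32 for RelA against 3.87 and 3.79 for RelB. The 2 RelA values lay on either side of the RelB values. Its 2 upstream sites, at 26930 and 24886 bp, were nearer to the start site of *Trappc3*. All other peaks upstream of *Col8a2* were likewise nearer to *Trappc3* or *Mtap7d1*, so the 19 peaks are not those of *Col8a2* alone. The 16 peaks of *Itgav* all had *Itgav* as the nearest start site. *Col8a1*, the other chain of type VIII collagen, had an intronic site at 3998 bp (chr16:57750778-57750926) with 2.99 and 3.36 for RelA against 3.48 and 3.10 for RelB. Both chains of type VIII collagen were thus bound by both antibodies.

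*Col18a1*, a basement membrane collagen whose end fragment is endostatin, had an intronic site (chr10:76579491-76579987) with 3.94 and 3.83 for RelA against 3.42 and 3.30 for RelB. Both RelA values were the higher ones there. A RelA site 45083 bp upstream went the other way, with 1.87 and 1.97 for RelA and a higher RelB peak, 2.80, in 1 library. The intronic site, 49554 bp downstream of the start site, lay just inside the limit, as did a site of *Itgb4* at 49446 bp. Just outside the limit were sites at 55739 bp from *Col8a1* and 56906 bp from *Col6a1*, which are genes already bound.

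*Col1a2* encodes a chain of type I collagen, the main collagen of skin, tendon and bone. Its only site (chr6:4453086-4453561) lay 1490 bp upstream of the start site. The folds were 3.10 and 2.28 for RelA against 3.27 and 2.97 for RelB on the log2 scale. *Col5a1*, a fibrillar chain that sets fibril width and is mutated in Ehlers-Danlos syndrome, was the gene with a site called in all 4 libraries closest to its start, 114 bp upstream (chr2:27741527-27742134). That site had 3.05 and 2.39 for RelA against 2.68 and 2.97 for RelB. A further intronic site of *Col5a1* at 45833 bp (chr2:27787560-27787996) had 2.48 and 1.78 for RelA against 3.57 and 2.24 for RelB. At each of the 3 sites the antibodies overlapped.

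*Col27a1*, a fibrillar chain of cartilage, had intronic sites at 2503 and 19736 bp. The nearer (chr4:62877344-62877738) had log2 folds of 2.57 and 1.52 for RelA against 2.68 and 2.97 for RelB, and its RelA peaks did not overlap each other, so that it counted as a RelB site only. The farther (chr4:62894589-62894958) had 2.89 and 2.83 for RelA against 2.13 and 2.97 for RelB. *Col11a2*, a chain of cartilage fibrils, owed its class to a site 38946 bp upstream (chr17:34137221-34137651) that lay 158 bp from the start of the class I histocompatibility gene *H2-K1*, with 5 start sites closer than its own. The folds were 2.87 and 2.40 for RelA against 2.50 and 2.80 for RelB.

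*Itga2* and *Itga1* encode collagen-binding alpha subunits. The *Itga2* site (chr13:115708279-115708619) was intronic at 13800 bp, with log2 folds of 3.30 and 2.62 for RelA against 3.49 and 2.97 for RelB. The *Itga1* site (chr13:115880803-115881239) was intronic at 11151 bp, and 625 bp from the start site of *Pelo*. It had 2.99 and 1.89 for RelA against 3.65 and 3.10 for RelB, and both RelB values were the higher ones.

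*Itgav*, the alpha subunit of the vitronectin receptors that also activate latent TGF-β, had a site in all 4 libraries 33664 bp upstream (chr2:83530651-83531128). The folds were 2.64 and 1.78 for RelA against 2.36 and 2.84 for RelB on the log2 scale. It had 2 more RelB sites, 23586 bp upstream and 35872 bp downstream, each with a peak in 1 of the RelA libraries. *Itgb2* encodes the beta subunit of the leukocyte integrins. Its site (chr10:77032873-77033404, 40142 bp downstream) was nearer to *Pttg1ip* and had log2 folds of 3.86 and 3.36 for RelA against 3.87 and 3.98 for RelB. *Itgb2* was classed with a RelA site and no RelB site only because its 2 RelB peaks did not overlap each other, although a peak was called there in all 4 libraries.

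**Figure D2:**
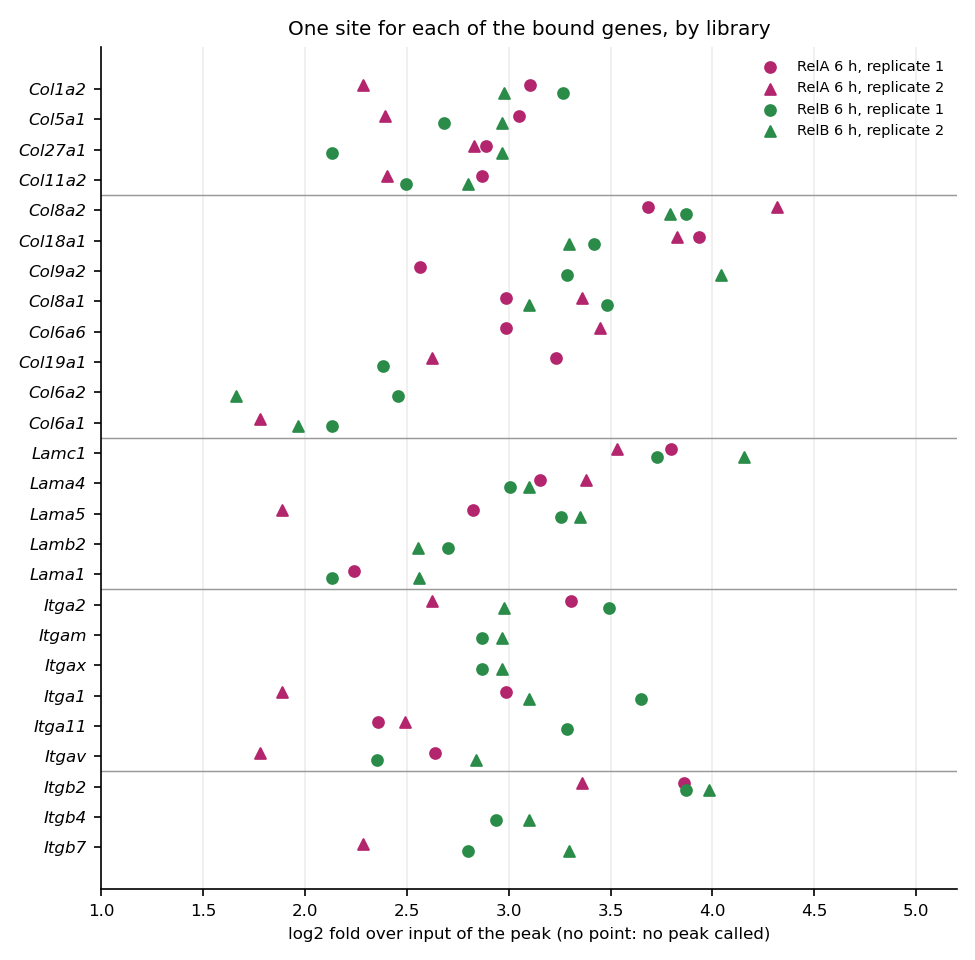
Log2 fold over input (x axis) in each of the 4 libraries at 6 h, for 1 site of each of 26 of the bound genes (y axis, grouped from top to bottom as fibrillar collagens, other collagens, laminin chains, integrin alpha and integrin beta subunits); the site shown is the one called in the most libraries and, among those, with the highest mean. *Col8a2* reaches 4.32 in a RelA library, and *Col6a2*, *Col6a6*, *Itgam*, *Itgax*, *Itgb4* and *Lamb2* have points of 1 antibody only.

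Most genes bound by a single antibody had a peak of the other within 50 kb, though often not at the site itself. Of the 4 genes with a RelA site and no RelB site, 3 had a RelB peak within 50 kb, and of the 8 with a RelB site and no RelA site, 6 had a RelA peak. The exceptions were *Col6a6* for RelA and *Itgam* and *Itgb4* for RelB. At the site itself, no RelA peak was called for *Itgam*, *Itgax*, *Itgb4*, *Lamb2* and *Col6a2*, and no RelB peak for *Col6a6*. The share of all genes with such peaks was not computed. When a library was left out, its antibody was read from 1 library while the other kept the rule of overlapping peaks, so the direction of the change was set by construction. Genes bound by RelA and not RelB were then 1 without replicate 2 of RelB and 17 without either RelA library. Genes bound by RelB and not RelA were 17 without replicate 1 of RelB and 3 without replicate 2 of RelA. Sequences at κB matches are shown for the *Col6a6* site and for the site shared by *Itgam* and *Itgax*, where a single antibody was called. The RelA site of *Col6a1*, which had no RelB peak but lay near a RelB site, is shown with them.
*Col6a1* (chr10:76192899-76192928, minus strand): ttcgaacactGGGCCACCCCatcctttgga
*Col6a6* (chr9:105729826-105729855, plus strand): tctcattccaGGAGAACCCCgagtatgtgg
*Itgam/Itgax* (chr7:135232866-135232895, plus strand): ttctcgacttGGGGCTTCCCatactgtgtt

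*Col6a6*, a chain of the microfibrillar type VI collagen, had a RelA site 637 bp downstream of its start site, in an intron (chr9:105729705-105729851). Its log2 folds were 2.99 and 3.45 from 15 and 21 ChIP reads, with 3 input reads each, and no RelB peak was called within 50 kb. The site held 3 κB matches. *Col6a1*, the chain common to type VI collagen, had a RelA site 4029 bp upstream (chr10:76192813-76193071) with folds of 2.99 and 3.58 from 12 and 14 reads and no RelB peak. A RelB site 6820 bp upstream had folds of 2.13 and 1.97 and a RelA peak of 1.78 in replicate 2. *Col6a1* thus counted as bound by both antibodies, at different positions.

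*Itgam* and *Itgax*, the alpha subunits of myeloid complement receptors, are neighbours and shared a single RelB site (chr7:135232782-135232977), in an intron of *Itgam*, 26726 bp downstream of its start and 40182 bp upstream of that of *Itgax*. The log2 folds were 2.87 and 2.97 from 29 and 42 ChIP reads, and no RelA peak overlapped it. *Itgax* had a RelA peak elsewhere in 1 library, which lay in an intron of *Itgam*. That peak was more than 50 kb from the start site of *Itgam*, which had no RelA peak within 50 kb. *Itgb4*, the beta subunit of hemidesmosomes, had a RelB site 49446 bp downstream (chr11:115885412-115885525) with folds of 2.94 and 3.10 from 19 and 18 reads. This site lay in an exon of the histone gene *H3f3b*, held no κB match, and had 3 start sites closer than that of *Itgb4*. Whether a missing peak means less binding cannot be told apart from a signal just under the calling threshold, since the lists give no signal where no peak was called.

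Among the rest, *Lamb2*, a laminin chain of kidney and synaptic basement membrane, had a RelB site with log2 folds of 2.70 and 2.55 that lay 325 bp from the start of *Ccdc71*. The *Col9a2* site (3.29 and 4.04 for RelB, 2.57 in 1 RelA library) was nearest to *Smap2*. The *Itgb7* site was in an intron of *Rarg* and had 2.80 and 3.30 for RelB and 2.28 in 1 RelA library. *Lama1* had RelB folds of 2.13 and 2.56 and a RelA fold of 2.24. *Col6a2* had its RelB site 45632 bp upstream, with folds of 2.46 and 1.66. *Col19a1* and *Itga11*, the latter a collagen-binding subunit of fibroblasts, each had a RelA site with a RelB peak in 1 library. In *Col19a1* the RelA folds were 3.23 and 2.62 and the RelB fold 2.38, and in *Itga11* they were 2.36 and 2.49 against 3.29, so that the single RelB peak was the higher one there.

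Sites were spread over the whole window. The 36 RelA or RelB sites formed 37 pairs with the 80 genes, of which 18 were upstream and 19 downstream of the start site. The median distance was 23586 bp, and 2 pairs were within 1 kb and 10 within 10 kb. In 27 pairs the bound gene was the one with the nearest start site, and in 10 another start site was closer. In 17 pairs the site lay inside the gene itself. By annotation 20 sites were intronic, 14 intergenic and 2 exonic. Assignment to a gene by distance does not show that the site acts on it.

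**Figure D3:**
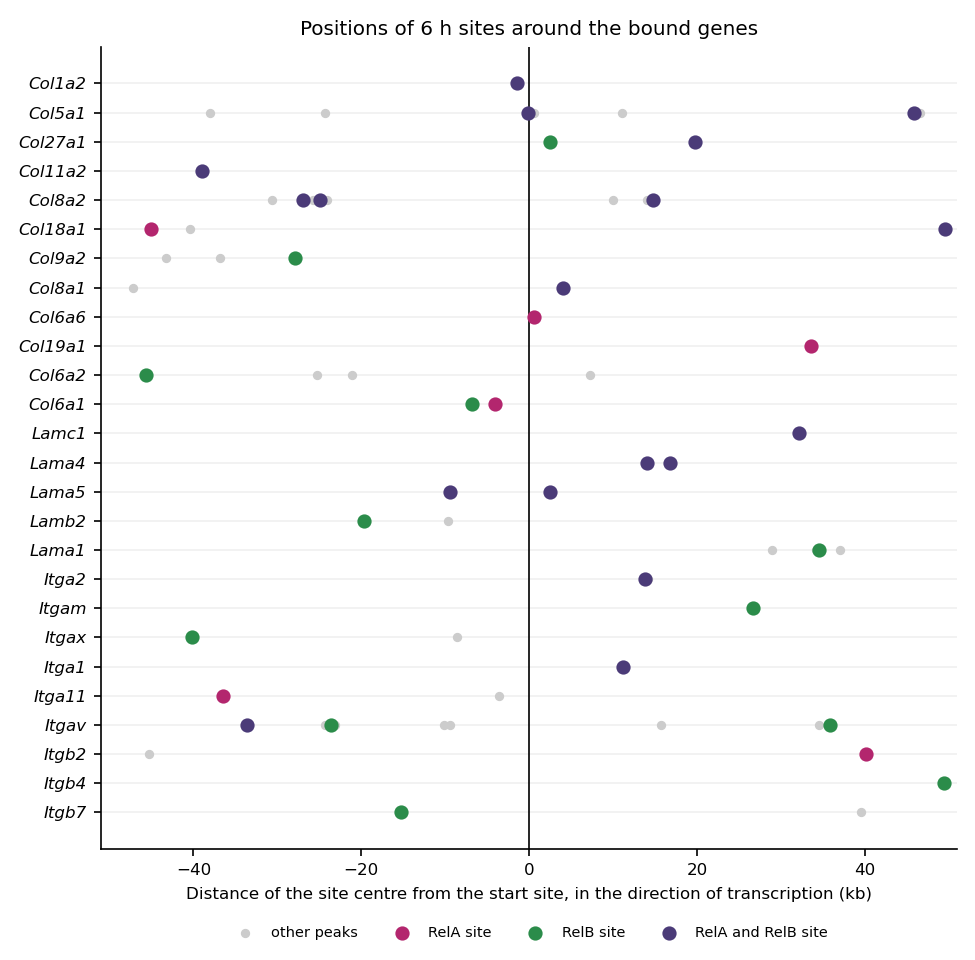
Distance of each 6 h site centre from the start site in the direction of transcription (x axis, kb) for 26 of the bound genes (y axis, in the order of the plot of log2 folds); large points are sites of RelA, RelB or both, and small grey points are other peaks. Sites lie on both sides of the start, and only *Col5a1* and *Col6a6* have one within 1 kb.

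The strength of RelA against RelB was compared at the sites called in all 4 libraries, of which there were 1860 in the genome and 21 near the 80 genes. In a limma fit over the 1860 sites, with each library centred on its median, 8 sites (0.43%) were higher for RelA and 3 (0.161%) were higher for RelB at an adjusted p under 0.05. None of the 21 passed. The number called in the genome, 11 in all, rested on the choice of libraries, since it was 40 and 39 without replicates 1 and 2 of RelA and 0 without either RelB library (193 and 203 with an unadjusted limma p under 0.05). By limma 5 of the 21 had an unadjusted p under 0.05, against 313 of the 1860. By sign 8 were higher for RelA and 13 for RelB, so that 38.1% were higher for RelA against 49.1% of the 1860. Without centring the counts were 6 and 15, or 28.6% against 41.7%. All 21 differences lay within a factor of 2, as did 95.2% of those in the genome. Sites with a peak of only 1 antibody could not enter this comparison, so the range was narrowed in advance by the choice of sites.

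The difference of the median-centred log2 folds, RelA minus RelB, came to -0.86 ± 0.33 at the *Lama5* site at 2453 bp (SE, 2 libraries for each antibody, limma adjusted p = 0.224). It came to -0.85 ± 0.37 at *Itga1* (limma adjusted p = 0.281). Without centring these differences were -0.95 and -0.94. At *Itga1* the difference was -1.38 (limma adjusted p = 0.0454) when replicate 1 of RelA was left out, a fit in which RelA is 1 library, assumed to vary like the RelB libraries that alone give the spread. *Col18a1* at 0.61 ± 0.27 and the *Col8a2* site 26930 bp upstream at 0.62 ± 0.26 also had an unadjusted p under 0.05. The smallest difference was that of the nearer *Lama4* site, at 0.02 ± 0.26, or -0.06 without centring. At *Lama5* the unadjusted limma p was 0.023, and the difference did not pass after adjustment over the 1860 sites. With 2 libraries for each antibody, equal binding was not shown either.

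**Figure D4:**
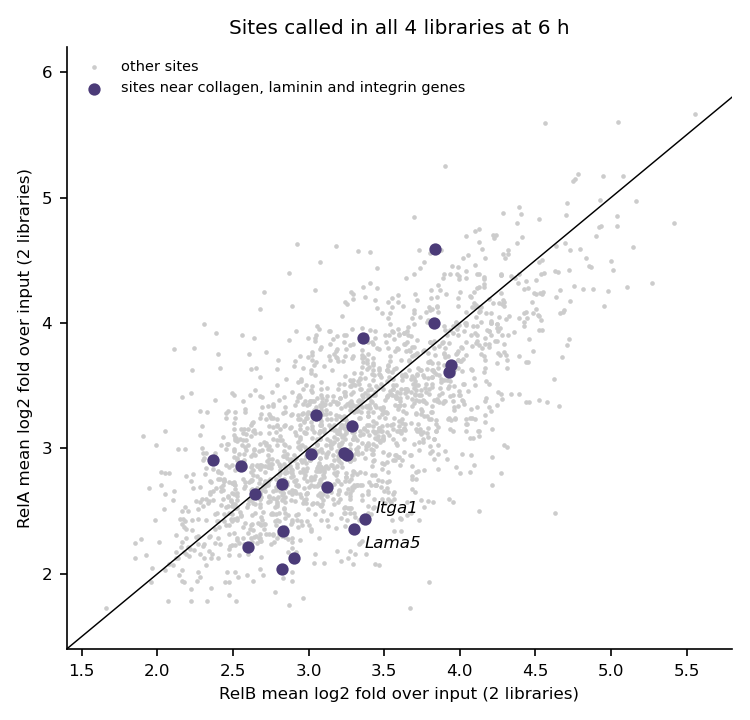
Mean log2 fold over input of 2 RelB libraries (x axis) and 2 RelA libraries (y axis) at the 1860 sites called in all 4 libraries at 6 h, with the 21 sites near collagen, laminin and integrin genes in purple and the line of equal values. *Lama5* and *Itga1* lie below the line, with limma adjusted p-values of 0.224 and 0.281.

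The median folds near the matrix genes were below those of the genome in 3 of the 4 libraries, without a test. At the 21 sites the median log2 fold was 2.99 and 2.83 for RelA against 3.27 and 3.10 for RelB. Over all autosomal sites of this kind it was 3.21, 3.17, 3.25 and 3.30. The 21 sites rested on 12 to 101 ChIP reads per library, with a median of 29, and 12 of them had an FDR under 0.01 in every library. Over the genome, 1301 sites were called in all 4 libraries from peaks with an FDR under 0.01, against 1860 from all peaks.

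A κB match within 100 bp of the centre was present at 53 of the 115 positions (46.1%, Wilson 95% interval 37.3% to 55.2%, which covers counting error only) and at 44.3% of all autosomal positions. The share was 34.7% where a peak was called in 1 library (33.6% over the autosomes), 66.7% at RelA or RelB sites (67.4%) and 71.4% at sites called in all 4 libraries (73.9%). Of the sites shared by the 4 libraries, 15 of 21 held a match and 8 held 2 or more. The interval for the matrix genes thus covered the share over the autosomes. The letters TGANTCA, the recognition sequence of AP-1, a transcription factor that TNF also activates, were searched in the same window on both strands. They occurred at 24.3% of the 115 positions and at 13.6% of all, and at 23.8% against 16.5% of those called in all 4 libraries, a description that was not tested.

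Other genes of the matrix were read from a list of 50, of which 49 were autosomal protein-coding genes. Of these 16 had a RelA site (32.7%, against 13.9% of all genes), 22 a RelB site (44.9%, against 14.6%) and 13 both (26.5%, against 9.51%). A RelA site only was found for 3 (6.12%, against 4.4%) and a RelB site only for 9 (18.4%, against 5.12%), while 14 had peaks without a site (28.6%, against 26.1%) and 10 had no peak (20.4%, against 54.9%). These shares were not tested. Matrix glycoproteins and proteoglycans had a RelA site in 3 of 18 cases (16.7%) and a RelB site in 4 (22.2%), the nearest of the sublists to the background. *Hspg2*, the perlecan gene, had 5 and 6 RelA peaks and 3 and 5 RelB peaks, whereas *Fn1*, the fibronectin gene, had 1 RelA peak in 1 library. Among 16 collagen-processing genes 4 had a RelA site (25%) and 7 a RelB site (43.8%). *P4ha2*, a prolyl hydroxylase subunit, had 3 and 3 RelA peaks and 1 and 3 RelB peaks, and *Loxl2*, a collagen cross-linking oxidase, had 3 and 3 against 0 and 1. Of the 6 other matrix receptors, 4 had a site of both antibodies (66.7%), among them *Cd44*, the hyaluronan receptor, and *Sdc4*, a syndecan. Of the 9 integrin-linked adaptors, 5 had a site of both (55.6%), among them *Ilk*, *Parva* and *Pxn*.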

How the data were processed

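The 8 peak lists used here came from ChIP-seq of RelA and of RelB in *Nfkb2*-/- MEFs, untreated (0 h) or 6 h into TNF, with 2 libraries each. The list of the input library was not used here. One bound gene is counted but not reported by name. The authors removed adapters with cutadapt, mapped single-end reads by Bowtie (mm9, uniquely aligned reads) and ran cisGenome on each library to call peaks. The deposited FDR of each peak is a q-value, and the authors kept peaks under 0.1. The deposited log2 fold is the enrichment of the strongest window over scaled input. The deposited count columns give unnormalized ChIP and input reads in a peak. Total depth is unknown. Per the paper's methods, genes within 50 kb of a peak were associated with it.

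Start sites, 1 per gene, came from GENCODE release M1 on the mm9 sequence, and positions are counted from 1. Peaks were merged as stated in the report. The κB consensus allows any base at its central positions and was searched on both strands. RelA and RelB were compared with limma (lmFit and eBayes) on median-centred log2 folds, with Benjamini-Hochberg adjustment over all 1860 sites. Numbers of peaks at 6 h and 0 h were compared by an exact permutation test. The members and the lists were chosen with earlier results of these data known. Values in every library were given for members with a site called in all 4 libraries, members bound by 1 antibody with no peak of the other, and members with a 0 h peak. The other bound members were named by class and described in brief after their values were seen. Alternatives covered distance, FDR, fold, overlap, start sites, equal numbers of peaks (5192), normalization and left-out libraries. Those for binding by 1 antibody only, for the comparison with 0 h, and the κB share without a library were added after seeing the data. Site merging, gene assignment and limma were first tested on simulated data. The tools were limma 3.58.1 in R 4.3.3, samtools 1.23.1, and, in Python 3.11.15, pysam 0.24.0, scipy 1.17.1, matplotlib 3.10.9, pandas 2.3.3 and numpy 2.4.6.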

Additional observations from a re-analysis of the deposited data

How the results depend on the processing

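Counts of bound genes depended most on the distance and on the rule of shared peaks. Within 10 kb, 7 genes had a RelA site, 7 a RelB site and 6 both (7.5%, against 2.64%), and 58 had no peak (72.5%, against 82.6%). At that distance 1 gene was bound by RelA and not RelB and 1 by RelB and not RelA. There 7 had more peaks in every 6 h library than at 0 h. No share over all genes is given for the latter counts. Within 100 kb, 23 had both (28.8%, against 17.7% of all genes). With peaks of an FDR under 0.01, 12 had a RelA site (15%, against 10%), 2 had one without a RelB site and 46 had no peak (57.5%, against 73.1%). With the start sites of all transcripts 18 had no peak (22.5%, against 52.1%), and with peaks matched by centres within 500 bp 7 were bound by RelA and not RelB. Taking a peak in either library gave 44 genes for RelA (55%, against 37.2%), 41 for RelB (51.2%, against 31.9%), 33 for both (41.2%, against 24.1%) and 11 for RelA and not RelB.

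When 1 library was left out, its antibody was read from a single library and the other from 2, so that the direction of these changes was fixed by construction. RelA genes then numbered 36 without replicate 1 of RelA (45%, against 25.2% of all genes) and 37 without replicate 2 (46.2%, against 30.5%). Genes with RelA and not RelB ranged from 1 (without replicate 2 of RelB) to 17 (without either RelA library), and genes with RelB and not RelA from 3 (without replicate 2 of RelA) to 17 (without replicate 1 of RelB). With labels permuted within each antibody, chosen after seeing the data, 0 of the 18 genes with more peaks at 6 h had a p under 0.05.

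In limma, 11 sites of the genome differed between RelA and RelB, 30 with peaks of an FDR under 0.01, and 0 to 40 when a library was left out (40 and 39 without replicates 1 and 2 of RelA, and 0 without either RelB library, where 193 and 203 had an unadjusted p under 0.05). With the replicate block 85 sites differed, 41 higher for RelA and 44 for RelB, none of them near the 80 genes. Same-numbered RelA and RelB libraries did not deviate together (correlation -0.003 over 1860 sites), so the numbers were not taken as pairs. The only site near the 80 genes that was called in any of these fits was that of *Itga1*, without replicate 1 of RelA, where RelA is 1 library and the RelB libraries alone give the spread. The κB share was 30.4% within 50 bp and 67.8% within 250 bp of the centre, against 27.6% and 61.4% over the autosomes. In all, 35 of 91 recomputed counts and shares moved beyond the margin set for them and 56 did not. Total depth was unknown, so a gene without a peak was not shown to lack binding.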

Other observations

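Matrix genes are long, and a window around the start site leaves much of them out. Of the 80 genes, 50 were longer than 50 kb, and 14 of these had a RelA or RelB site inside the gene but more than 50 kb from the start site. For 8 of the 14 no site lay within 50 kb, so that they were counted above as not bound. *Itga6*, the laminin-binding alpha subunit, had no peak within 50 kb but a site called in all 4 libraries at 92340 bp (chr2:71675768-71676259), with log2 folds of 3.18 and 3.24 for RelA against 3.26 and 2.78 for RelB. *Col12a1*, a fibril-associated collagen, had one at 69920 bp (chr9:79496199-79497237) with 3.63 and 3.06 for RelA against 3.01 and 3.14 for RelB. *Col14a1*, a relative of *Col12a1*, had one at 158301 bp (chr15:55297309-55297903) with 2.57 and 2.92 for RelA against 2.72 and 3.10 for RelB. *Col23a1*, a transmembrane collagen, had one at 236817 bp (chr11:51340127-51340351) with 3.18 and 3.58 for RelA against 3.32 and 3.35 for RelB. In each of these 4 genes the values of the antibodies overlapped.

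*Col4a2*, a chain of the basement membrane network, had 3 sites beyond 50 kb, at 69100, 80160 and 99176 bp. The first was called in the RelB libraries only, with log2 folds of 3.18 and 2.73, and each of the other two in 3 libraries. *Col6a6*, which had a RelA site and no RelB peak near its start, had a site called in all 4 libraries at 125626 bp (chr9:105604451-105605128), with 2.34 and 2.62 for RelA against 2.88 and 2.65 for RelB. Its description as bound by RelA without RelB therefore holds for the 50 kb window and not for the whole gene. The genes were named here after their values were seen, and no share of long genes in the genome was computed for comparison.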
